A study of Mus musculus with 4 samples.

Results

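Glucocorticoid target genes are described here across the 4 treatment groups of a mouse dentate gyrus (DG) study. The genes were chosen by name: Fkbp5, Sgk1, Tsc22d3, Zbtb16, Plin4, Sult1a1, Mt1, Mt2, Pdk4 and Nr3c1. All 10 were on the array, where they were read by 17 of the 20380 probe sets that carry a single gene symbol and made up 10 of 12393 genes. The study gave mice electroconvulsive stimulation (ECS), which models electroconvulsive therapy in rodents, and asked what it changes in the granule cells (GCs) of the DG. RNA from 3 mice was pooled for each group and hybridised to 1 Affymetrix Mouse Genome 430A 2.0 array. No group has a replicate array, so no difference in these data has a spread between samples, a test or a p-value.

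All groups were C57Bl/6 mice. The methods describe the animals as males bought at an age of 8 weeks. The 11 ECS group was dissected 1 h after its 11th session. The 10 ECS group was dissected 48 h after its 10th session, and the design described by the study implies a further sham session, without current, in its last hour. The single ECS group was dissected 1 h after its only session. The sham group had a single session, handled in the same way as ECS mice but without a shock, and was dissected after 1 h. No group had repeated sham sessions alone, so repeated handling and isoflurane cannot be told apart from repeated ECS. In a session, pulses of 0.5 ms and 25 mA were passed bilaterally through ear clips for 1 s at a rate of 100 per s, under isoflurane, and repeated sessions were spaced at 4 a week over 3 weeks. The treatment fields of the labels match the sample titles, which set the groups here, whereas free-text descriptions of 3 samples name other treatments. A pool of mice has no measure of variation between animals. In bulk tissue, fewer cells of a type and less RNA per cell cannot be told apart.

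Glucocorticoids are steroid hormones that the adrenal gland releases under stress and on a daily rhythm. They bind the glucocorticoid receptor, encoded by Nr3c1, which is held in the cytoplasm by chaperones until hormone arrives and then acts in the nucleus on DNA motifs called glucocorticoid response elements (GREs). Among the genes it can induce are regulators of the receptor itself, kinases, transcription factors, metal-binding proteins and enzymes of fuel and lipid use. The hippocampus holds the receptor at high levels, and several of these genes can be induced by other signals too. Hormone levels were not analysed here.

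The array measures each transcript as a MAS5 signal, a linear intensity in arbitrary units. A gene was represented by its brightest probe set, and a floor of 12 units, the 25th percentile over the arrays, replaced lower signals. By this measure 9 of the 10 genes were above the floor on all 4 arrays, the exception being Plin4. Median signals were 56.7 units for 11 ECS, 62.4 for 10 ECS, 56.3 for single ECS and 69.3 for sham, and the share of probe sets above the floor lay between 73.9% and 76.7%. The sham array had the highest median signal, and the median log2 ratio over all genes was -0.24 for single ECS over sham, -0.11 for 11 ECS over 10 ECS, -0.14 for 10 ECS over sham, 0.00 for 11 ECS over single ECS and -0.23 for 11 ECS over sham. Ratios below are given as measured, and those called relative have this median subtracted. The only error at hand is the spread between probe sets of 1 gene, with a pooled SD between 0.274 and 0.307 on the log2 scale in these 5 comparisons. It says nothing about arrays or mice.

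The pattern that most members shared was a low signal in the 10 ECS group. On the 10 ECS array 7 of the 10 genes had their lowest signal, namely Sgk1, Tsc22d3, Zbtb16, Plin4, Sult1a1, Mt1 and Mt2, against 16.8% of all genes. Sgk1, a kinase that acts on ion channels, was at least 1.5-fold higher 1 h after ECS both in mice without earlier sessions and after 10 of them. On its dimmer probe set Mt1 was so too, at 2.19-fold higher in 11 ECS over 10 ECS and 3.16-fold higher in single ECS over sham, but not on the brighter one, which can bind other transcripts. Sult1a1, Plin4, Zbtb16 and Tsc22d3 were higher after 11 ECS than after 10 ECS but lower after a single ECS than after sham, although Tsc22d3 was not lower once the arrays were scaled to 1 median, nor Zbtb16 on its dimmer probe set. Nr3c1 was lower 1 h after ECS on both occasions, by at least 1.5-fold as deposited, but by less than that in 11 ECS over 10 ECS under each of the 3 array scalings tried and in single ECS over sham under 2 of them. The comparisons share arrays: the sham array is the denominator of 3 of them and the 10 ECS array enters 2, while single ECS over sham and 11 ECS over 10 ECS have no array in common.

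**Figure D1:**
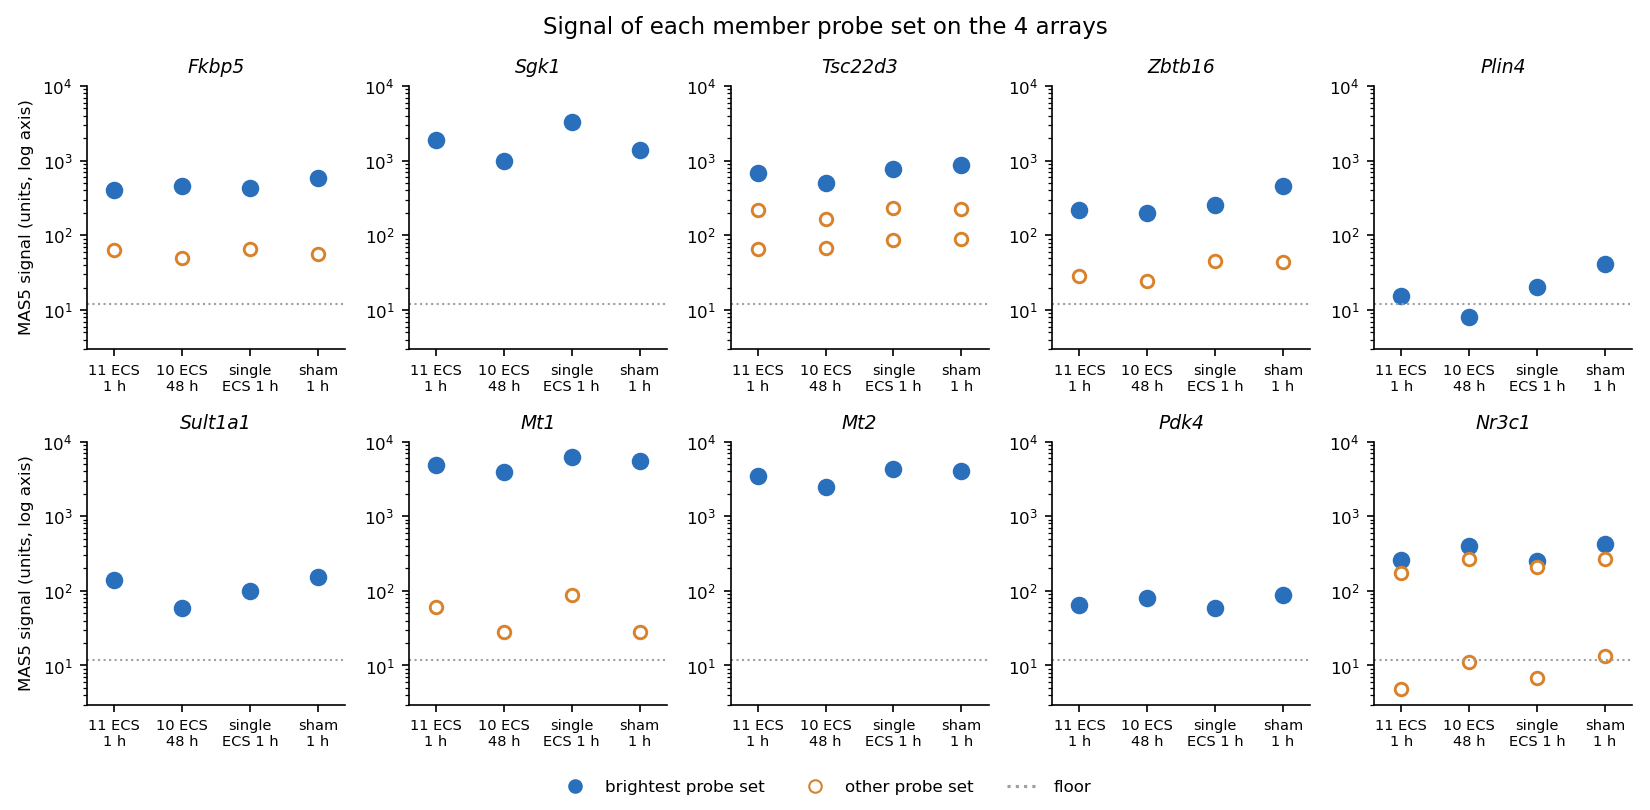
MAS5 signal (units, log axis) of every member probe set on the 4 arrays, 1 panel per gene; filled points are the brightest probe set of the gene, open points are its other probe sets, and the dotted line is the floor of 12 units. Sgk1 was brightest on the single ECS array at 3328.9 units, and the filled points of Sgk1, Tsc22d3, Zbtb16, Plin4, Sult1a1, Mt1 and Mt2 were lowest on the 10 ECS array.

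Sgk1 encodes the serum- and glucocorticoid-regulated kinase, a classical direct target of the receptor. Its 1 probe set read 1896.7 units in 11 ECS, 1003.7 in 10 ECS, 3328.9 in single ECS and 1372.1 in sham. Both arrays from 1 h after ECS were thus above both arrays from mice without a recent shock. Single ECS was 2.43-fold higher than sham, a log2 ratio of 1.28 or 1.52 relative to all genes, and 77 of 10134 genes had a higher ratio. After earlier sessions the 11 ECS array was 1.89-fold higher than the 10 ECS array (log2 ratio 0.92, relative 1.02). The signal after the last session was lower with repetition: 11 ECS was 1.76-fold lower than single ECS (log2 ratio -0.81), and 168 of 9971 genes had a lower ratio. The 10 ECS array was itself 1.37-fold lower than sham.

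The windows from 250 bases before to 50 bases after annotated transcript starts (RefSeq, mouse build GRCm38.p6) were searched for the GRE, spelled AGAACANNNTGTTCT, which reads the same on both strands, and for a relaxed GRE, GNACANNNTGTNC, which lies inside it. Windows of 8 of the 10 members were used, 15 in all, and none was used for Zbtb16 and Nr3c1. The full GRE occurred in 3 of 32851 windows, or 0.00913%, and Sgk1 was the member among them. It lay in 1 of the 6 Sgk1 windows, and which annotated start gives the Sgk1 signal was not tested. The relaxed form was found in 0.475% of windows, and among the 15 member windows in those of Sgk1 and Mt1. The Sgk1 stretch before the start is shown because it is the member with both the full motif and the highest ratio after a single ECS. It is chr10:21993640-21993889 on the + strand, with the GRE, from base -189 to base -175 relative to the start, in capitals.
Sgk1: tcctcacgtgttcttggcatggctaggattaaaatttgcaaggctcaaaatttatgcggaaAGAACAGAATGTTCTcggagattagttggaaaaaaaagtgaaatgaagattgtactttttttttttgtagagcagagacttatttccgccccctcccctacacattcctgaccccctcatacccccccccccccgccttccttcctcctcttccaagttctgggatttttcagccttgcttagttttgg

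Both metallothionein windows lie on chromosome 8 and are shown because they hold cores of the metal response element (MRE). Mt1 and Mt2 encode small cysteine-rich proteins that bind zinc and copper, and they can be induced by metals through MREs and by glucocorticoids. The core of the MRE was searched as TGCACNC, present in 12.6% of all windows, and as TGCGCNC, present in 15.4%, on both strands, with no overlap between the forms or with the GRE. Mt1 (chr8:94178839-94179088, + strand) is printed with its relaxed GRE, from base -94 to base -82, and 1 MRE core, which starts at base -23, in capitals. Mt2 (chr8:94172368-94172617, + strand) is printed with 3 MRE cores in capitals, which start at bases -223, -128 and -50.
Mt1: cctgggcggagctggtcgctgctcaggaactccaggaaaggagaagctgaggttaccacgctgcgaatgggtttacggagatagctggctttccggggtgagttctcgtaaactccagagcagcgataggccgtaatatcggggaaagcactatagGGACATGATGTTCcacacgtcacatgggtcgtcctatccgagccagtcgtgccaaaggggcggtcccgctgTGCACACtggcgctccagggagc
Mt2: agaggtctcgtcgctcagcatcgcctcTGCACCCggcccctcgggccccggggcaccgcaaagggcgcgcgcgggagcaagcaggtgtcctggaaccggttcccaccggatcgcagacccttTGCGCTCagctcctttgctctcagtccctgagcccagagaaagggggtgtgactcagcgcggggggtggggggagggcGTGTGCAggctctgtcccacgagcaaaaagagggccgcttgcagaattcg
Further MRE cores began after the start, at bases 2 and 20 of Mt1, at base 4 of Mt2 and at base 11 of another Sgk1 window. A match is a run of letters and not a measured binding site.

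**Figure D2:**
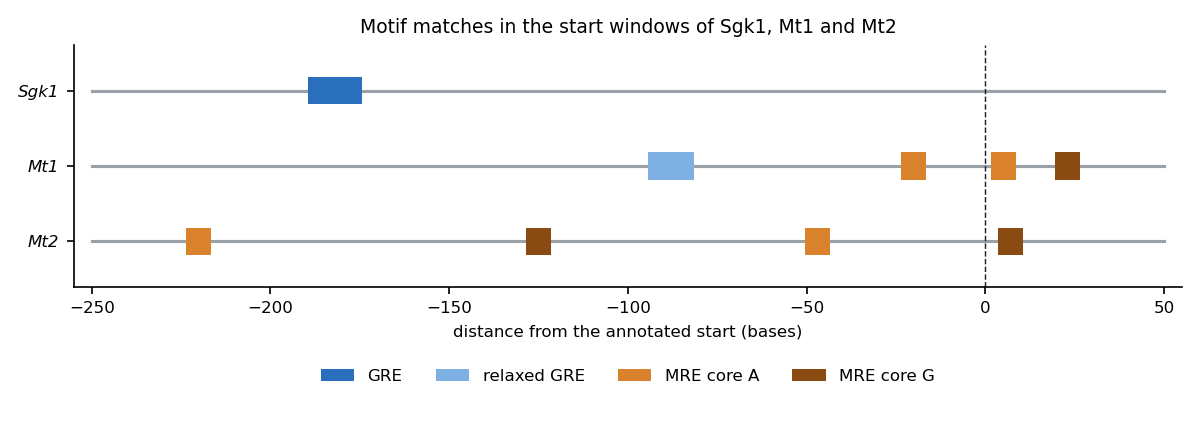
Motif matches along the windows of Sgk1, Mt1 and Mt2, drawn to scale as distance in bases from the annotated start (dashed line); boxes are GRE, relaxed GRE and both forms of the MRE core. The GRE of Sgk1 begins at base -189, Mt1 holds a relaxed GRE and 3 MRE cores, and Mt2 holds 4 MRE cores.

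Both metallothioneins had the same order of arrays. Mt1 read 4919.5 units in 11 ECS, 3865.7 in 10 ECS, 6228.9 in single ECS and 5555.4 in sham. Mt2 read 3468.3 units in 11 ECS, 2452 in 10 ECS, 4229.8 in single ECS and 4086.1 in sham. For both genes single ECS was the highest array and 10 ECS the lowest. Mt2 was 1.67-fold lower in 10 ECS than in sham (log2 ratio -0.74) and Mt1 1.44-fold lower (-0.52). In 11 ECS over 10 ECS, Mt2 was 1.41-fold higher and Mt1 1.27-fold higher. The single ECS and sham arrays were close, with log2 ratios of 0.17 for Mt1 and 0.05 for Mt2.

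The Mt1 value rests on a probe set that can also bind other transcripts. The other Mt1 probe set was dim, at 61.4 units in 11 ECS, 28 in 10 ECS, 87.4 in single ECS and 27.7 in sham, and showed another pattern: it was higher on both arrays taken 1 h after ECS, and the 10 ECS and sham arrays were alike. In the brain, Mt1 and Mt2 are known to be made largely by astrocytes. The summed signal of 6 astrocyte marker genes was 10291 units in 11 ECS, 9991 in 10 ECS, 10011 in single ECS and 11343 in sham, with Gfap, the filament protein of reactive astrocytes, at 135 and 114.1 units in the 2 repeated groups, against 45.6 in single ECS and 49.3 in sham. The part of astrocytes in the metallothionein values was not tested.

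The list of metal handling and oxidative stress genes, drawn up around the metallothioneins, had 12 genes on the array. Slc30a1, a zinc exporter that zinc induces through MREs, read 109.3 units in 11 ECS, 84.3 in 10 ECS, 178.5 in single ECS and 77.1 in sham, so that single ECS was 2.32-fold higher than sham. Mt3, the brain form of metallothionein, was flat at 539.3, 579.5, 583.6 and 587 units in the same order of groups. Of the 11 genes measured in single ECS over sham, 1 gene was past 1.5-fold higher, against 3.05% of all genes, and 1 was past 1.5-fold lower, against 15.3%. In 10 ECS over sham no gene was past 1.5-fold higher, against 2.94%, and 2 were past 1.5-fold lower, against 7.16%, and the list's median was -0.21, or -0.07 relative to all genes, against -0.74 and -0.52 for Mt2 and Mt1.

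Nr3c1, the receptor gene, was lower on both arrays taken 1 h after ECS. It read 262.4 units in 11 ECS, 397.7 in 10 ECS, 253.3 in single ECS and 426.5 in sham. The 10 ECS and sham arrays were close (log2 ratio -0.10), while 11 ECS was 1.52-fold lower than 10 ECS and single ECS was 1.68-fold lower than sham. The responses on both occasions were alike in size, at -0.60 and -0.75. A second probe set, at 171.8 units in 11 ECS, 265.1 in 10 ECS, 207.5 in single ECS and 265.7 in sham, was again lower on both 1 h arrays, with log2 ratios of -0.63 for 11 ECS over 10 ECS and -0.36 for single ECS over sham. With arrays scaled to 1 median, the ratios of the first probe set were -0.46 and -0.45 in that order. The third was at or under the floor on 3 arrays.

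Fkbp5 encodes a co-chaperone that lowers the hormone affinity of the receptor and is induced by it, which makes it a widely used readout of receptor activity. It read 410.6 units in 11 ECS, 460.5 in 10 ECS, 431.4 in single ECS and 581.9 in sham. The sham array was the highest and the other 3 lay close together. The gene was 1.26-fold lower in 10 ECS than in sham and 1.35-fold lower in single ECS than in sham, and the relative log2 ratio of the second was -0.19. Its dimmer probe set read 63.8 units in 11 ECS, 49.3 in 10 ECS, 65.0 in single ECS and 55.7 in sham, with higher signals on both arrays from 1 h after ECS. For single ECS over sham the 2 probe sets of Fkbp5 thus pointed in opposite directions.

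Around the receptor, 4 genes for receptors and local steroid conversion, Nr3c1 among them, were on the array. Hsd11b1, which regenerates active hormone inside cells, was at 474.6 units in 11 ECS, 525.4 in 10 ECS, 466.2 in single ECS and 520.2 in sham. H6pd, which supplies the cofactor of that enzyme, was dim: 9.9 units in 11 ECS and 9.6 in single ECS were under the floor, against 30.8 in 10 ECS and 42.1 in sham. It was at least 2.57-fold lower in 11 ECS than in 10 ECS and at least 3.51-fold lower in single ECS than in sham. Among 10 receptor chaperones, Fkbp5 included, Dnajb1, a heat shock co-chaperone, read 800.1 units in 11 ECS, 461.1 in 10 ECS, 1391.2 in single ECS and 485.6 in sham. It was the only chaperone of the list past 1.5-fold in single ECS over sham (2.86-fold higher) and in 11 ECS over 10 ECS (1.74-fold higher). Of all genes, 3.05% were past 1.5-fold higher and 15.3% lower in the first comparison, and 3.45% and 6.9% in the second. All 8 measured coregulator genes were below 0 in 10 ECS over sham, against 71.4% of all genes, with a median of -0.34, or -0.21 relative to all genes. Nrip1, a corepressor that binds nuclear receptors, was the lowest of them at 185.7 units in 10 ECS, against 326.9 in sham.

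Tsc22d3, known as GILZ, encodes a leucine zipper protein that carries part of the anti-inflammatory action of glucocorticoids. It read 675.9 units in 11 ECS, 496.1 in 10 ECS, 766 in single ECS and 879.1 in sham. The 10 ECS array was the lowest, 1.77-fold lower than sham (log2 ratio -0.83), and 11 ECS was 1.36-fold higher than 10 ECS. Single ECS over sham was -0.20, near the median of all genes. The other probe sets read 221.2 and 65.7 units in 11 ECS, 165 and 67.1 in 10 ECS, 230 and 86.4 in single ECS, and 225.2 and 90.4 in sham. Both were lower in 10 ECS than in sham, and 1 of them, the brighter, was also higher in 11 ECS than in 10 ECS.

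Zbtb16, known as PLZF, encodes a zinc finger transcriptional repressor. It read 221.3 units in 11 ECS, 200.6 in 10 ECS, 255.4 in single ECS and 460.9 in sham. The sham array stood alone at the top. The gene was 2.30-fold lower in 10 ECS than in sham (log2 ratio -1.20, with 62 of 10203 genes lower), 1.80-fold lower in single ECS than in sham and 2.08-fold lower in 11 ECS than in sham. This probe set can cross-hybridise. The other, dimmer one read 28.5 units in 11 ECS, 24.1 in 10 ECS, 45.2 in single ECS and 43.5 in sham, so both were lower in 10 ECS than in sham, while the low signal after a single ECS was seen with the brighter one alone.

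Sult1a1, a sulfotransferase that conjugates phenols and catecholamines, had the most divergent pair of responses among the members. Its 1 probe set read 138 units in 11 ECS, 59.5 in 10 ECS, 99.4 in single ECS and 154.4 in sham. The 11 ECS and sham arrays were the highest and 10 ECS was the lowest. In 10 ECS it was 2.59-fold lower than in sham (log2 ratio -1.38), and 25 of 10203 genes had a lower ratio. One session later it was 2.32-fold higher, in 11 ECS over 10 ECS (log2 ratio 1.21), and 67 of 10046 genes had a higher ratio. Single ECS was 1.55-fold lower than sham.

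Plin4, a lipid droplet coat protein, was the member nearest to the floor. It read 15.5 units in 11 ECS, 8 in 10 ECS, 20.5 in single ECS and 41.3 in sham, so that the 10 ECS value was under the floor and the sham value was the highest. It was at least 3.44-fold lower in 10 ECS than in sham, 2.01-fold lower in single ECS than in sham and 2.66-fold lower in 11 ECS than in sham. In 11 ECS over 10 ECS it was at least 1.29-fold higher. Of 11 other perilipin and sulfotransferase genes on the array, 6 were measured in 10 ECS over sham. Of those, 5 were above 0 and 1 below, where 71.4% of all genes were below 0. Plin2, the general lipid droplet coat, read 86.2 units in 11 ECS, 81.3 in 10 ECS, 76.8 in single ECS and 71.1 in sham, and Sult2b1, a steroid sulfotransferase, 57.2, 49.5, 83.9 and 26.9 units in the same order of groups.

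Pdk4 encodes the kinase that shuts off pyruvate entry into the mitochondrial cycle and is induced by fasting and glucocorticoids. It read 65.3 units in 11 ECS, 80.5 in 10 ECS, 59.2 in single ECS and 88.1 in sham. Like Nr3c1 it was lower on both 1 h arrays, by 1.49-fold in single ECS over sham and with a log2 ratio of -0.30 in 11 ECS over 10 ECS. Its paralog Pdk1 was likewise lower on the 1 h arrays, at 191.9 units in 11 ECS, 276.1 in 10 ECS, 147.5 in single ECS and 226.2 in sham. None of the genes measured among the 11 fuel use genes on the array beside Pdk4 was past 2-fold in any of the 5 comparisons. Of all genes, 0.715% to 3.11% were past it in a given direction and comparison.

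Over the 10 members, the comparison of 10 ECS with sham was the most uniform in sign. Against the median of all genes, 8 members were on 1 side in it, and 6 or 7 in the other comparisons. In 10 ECS over sham all 10 log2 ratios were below 0, as were those of 71.4% of all genes. Pdk4 and Nr3c1, however, were at or above 0 once the arrays were scaled to 1 median, 1 trimmed mean or 1 distribution. The members' median was -0.63, or -0.49 relative to all genes, and 8 members were below the median of all genes. At least 2-fold lower were Zbtb16, Plin4 and Sult1a1, 3 of 10 against 1.22% of all genes, and 5 of 10 were at least 1.5-fold lower against 7.16%. No member was 1.5-fold or 2-fold higher, as 2.94% and 0.715% of all genes were. Of the 17 probe sets, some of which read the same gene, 16 were below 0. Among these were a ratio of -0.003 and a bound, both of Nr3c1. The number of members lowest on the 10 ECS array was 7 of 10 under each of these 3 scalings as well, when 17.0% to 22.6% of all genes were.

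**Figure D3:**
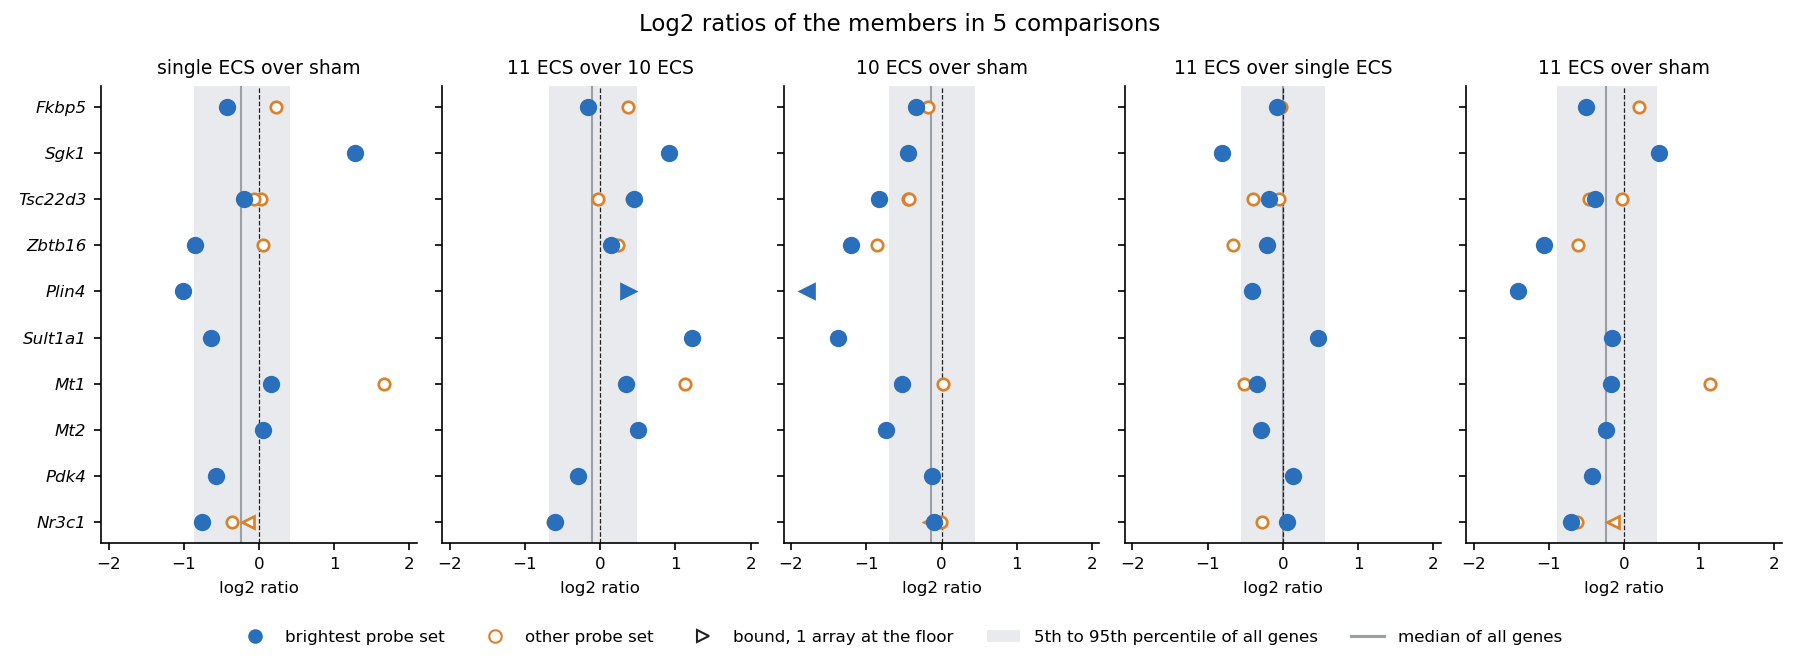
Log2 ratio of each member in the 5 comparisons; filled points are the brightest probe set, open points other probe sets, triangles are bounds where 1 array was at the floor, and the grey band and line are the 5th to 95th percentile and the median of all genes. In 10 ECS over sham the filled points of Zbtb16, Plin4 and Sult1a1 lie below -1, whereas Sgk1 lies above 0.9 in single ECS over sham and in 11 ECS over 10 ECS.

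After a single ECS, 7 members were below 0 and 3 above, with a median of -0.50, or -0.26 relative to all genes. The upper quartile of all genes was -0.06, so most genes were below 0 as well. Sgk1 was the 1 member past 2-fold higher and past 1.5-fold higher, against 1.2% and 3.05% of all genes, with Mt1 as the second where probe sets that can bind several transcripts were left out. Plin4 was the 1 member at least 2-fold lower, against 2.89%, and Zbtb16, Plin4, Sult1a1 and Nr3c1 were at least 1.5-fold lower, 4 of 10 against 15.3%. This last count was 1 with arrays scaled to 1 median, 3 with 1 trimmed mean and 2 by quantiles. Taken as dimmest probe sets the members had a relative median of 0.23, so the sign of this median depends on the probe set.

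After earlier sessions, in 11 ECS over 10 ECS, 7 members were above 0 and 3 below, with a median of 0.36, or 0.46 relative to all genes. The median of all genes was -0.11 and their upper quartile 0.06. Sult1a1 was at least 2-fold higher, 1 of 10 against 1.06% of all genes, and with Sgk1 2 of 10 were at least 1.5-fold higher against 3.45%. Nr3c1 was at least 1.5-fold lower, 1 of 10 against 6.9%, a count that was 0 under each of the 3 scalings, and 0 members were 2-fold lower against 1.21%. The 10 ECS array, on which 7 members were lowest, is the denominator here.

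The 11 ECS array was set against the arrays of mice without earlier sessions as well. In 11 ECS over single ECS 7 members were below 0 and 3 above, with a median of -0.19, against a median of 0.00 for all genes. Sgk1 was the 1 member at least 1.5-fold lower, against 4.22% of all genes, and 0 were 1.5-fold higher against 4.34%. Past 2-fold there were 0 members, against 0.832% of all genes higher and 0.782% lower. In 11 ECS over sham 9 members were below 0, of which Sult1a1 and Mt1 were above it after scaling to 1 median or 1 trimmed mean and Mt2 after scaling to 1 median, and Sgk1 was above 0 at 1.38-fold higher. The upper quartile of all genes was -0.03 in this comparison, so most genes were below 0 as well. Zbtb16 and Plin4 were at least 2-fold lower, 2 of 10 against 3.11% of all genes, and with Nr3c1 3 of 10 were at least 1.5-fold lower against 15.8%. No member was 2-fold higher, against 1.09%, or 1.5-fold higher, against 3.11%, although Sgk1 passed 1.5-fold under each of the 3 scalings (log2 ratios of 0.63 to 0.76). On the sham array 7 of the 10 members had their highest signal, against 57.3% of all genes, and after scaling to 1 median it was 3, against 22.0%.

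The response to ECS was compared between mice with and without earlier sessions by subtracting the log2 ratio of single ECS over sham from the one of 11 ECS over 10 ECS, so that all 4 arrays enter. It was above 0 for 9 members and below 0 for Sgk1, and it was above 0 for 69.6% of all genes. Mt1 and Nr3c1 turned with the settings: Mt1 was at -0.52 on its dimmer probe set, and Nr3c1 at -0.27 on its second probe set and at -0.01 with arrays scaled to 1 median. Sult1a1 had the highest difference, 1.85, with 21 of 9730 genes higher. Plin4 followed at 1.38, a value that rests on the floor, then Zbtb16 at 0.99 and Tsc22d3 at 0.64. For these 4 the sign of the response differed between the 2 occasions as deposited. It did not for Zbtb16 on its dimmer probe set (0.24 in 11 ECS over 10 ECS and 0.06 in single ECS over sham), nor for Tsc22d3 with arrays scaled to 1 median (0.58 and 0.10) or on its other probe sets. The difference was -0.36 for Sgk1, with 768 genes lower. For Mt2, Pdk4, Fkbp5, Mt1 and Nr3c1 it lay between 0.15 and 0.45, and the pooled SD between probe sets of 1 gene was 0.353. The members' median was 0.36 and that of all genes 0.13.

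**Figure D4:**
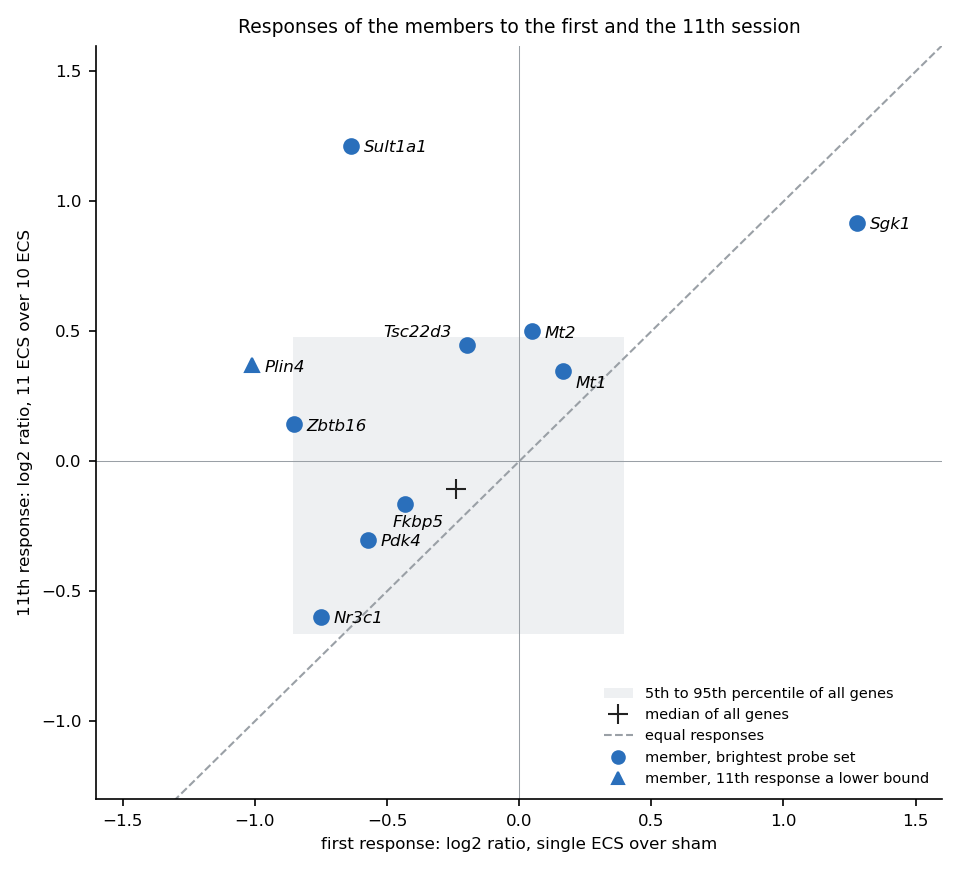
Log2 ratio of 11 ECS over 10 ECS (vertical axis) against that of single ECS over sham (horizontal axis) for the 10 members; the dashed line marks equal responses, the grey box spans the 5th to 95th percentile of all genes on each axis and the cross is their median. Sult1a1, at 1.21 and -0.64, lies farthest above the line, Sgk1, at 0.92 and 1.28, lies below it, and the 11th response of Plin4 is a lower bound.

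Other glucocorticoid-induced genes, a list of 34 with 29 on the array and 28 measured, had a median below that of all genes in 10 ECS over sham. Of the 28, 23 were below 0, against 71.4% of all genes, 9 were at least 1.5-fold lower, against 7.16%, and 0 were 1.5-fold higher, against 2.94%, with a median of -0.35, or -0.21 relative to all genes. Farthest from 0 was Cdkn1a, an inhibitor of the cell cycle, at 40 units in 10 ECS, against 90.9 in sham. Next were Hif3a, an inhibitory hypoxia factor, at 34.3, against 74, and Bcl6, a transcriptional repressor, at 396.6, against 801.7. On their other probe sets the log2 ratio was -1.08 for Cdkn1a, -0.40 for Hif3a and -1.19 for Bcl6. The receptor tyrosine kinase gene Mertk, which serves the uptake of dying cells, was at 212.1 units in 10 ECS, against 411.1 in sham.

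On the arrays taken 1 h after ECS, by contrast, several genes of that list were far above their partners. In 11 ECS over 10 ECS 8 of 28 were at least 1.5-fold higher and 1 lower, against 3.45% and 6.9% of all genes, led by Cdkn1a (5.31-fold), the phosphatase gene Dusp1 (3.50-fold), the clock gene Per1 (2.99-fold) and Rgs2, a regulator of G protein signalling (2.82-fold). In single ECS over sham 6 were at least 1.5-fold higher and 3 lower, against 3.05% and 15.3% of all genes, and Rgs2 (5.04-fold), Per1 (4.25-fold), Dusp1 (3.90-fold) and Errfi1, a brake on EGF receptors (3.83-fold), had the highest ratios. Seizure activity also induces genes of this kind in neurons, and the part of hormone in their values was not tested. Sesn1, Cebpd and Xdh were the 3 that were lower.

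**Figure D5:**
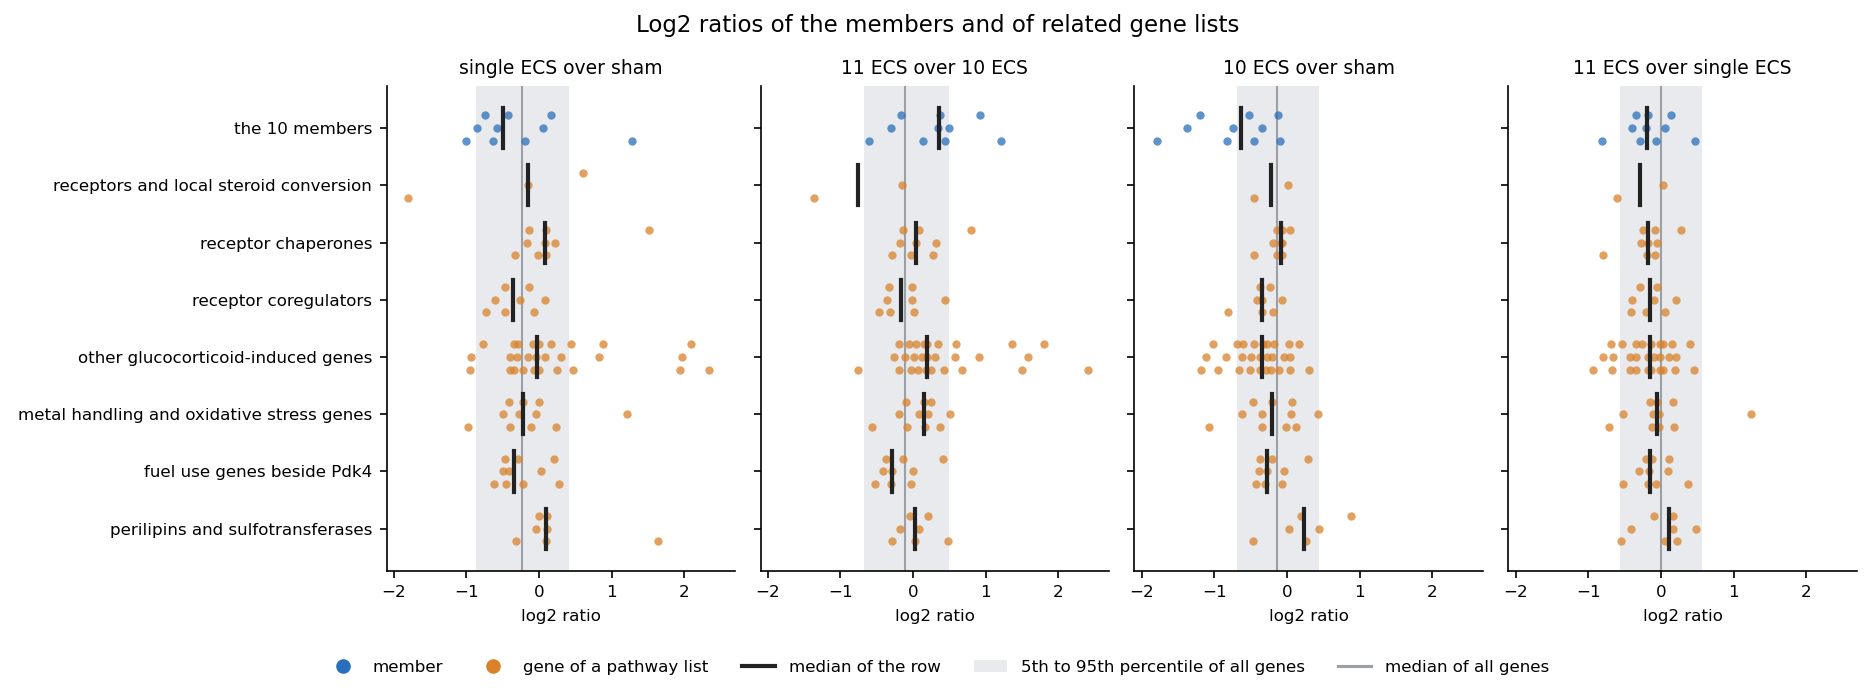
Log2 ratios of the 10 members (blue) and of 7 related gene lists (orange) in 4 comparisons; each point is a gene, black bars are medians, and the grey band and line are the 5th to 95th percentile and the median of all genes. In 10 ECS over sham the members have a median of -0.63 and the other glucocorticoid-induced genes one of -0.35.

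Genes whose signals varied over the 4 arrays most like 3 of the members were looked for among 7770 genes, by the root mean square difference of centred log2 signals. These were the 3 members with the widest range over the arrays among those above the floor throughout. Nearest to Sgk1 were Jdp2 at 0.071, Ier3 at 0.076 and Siah2 at 0.093, and 32 genes were within 0.2. Nearest to Zbtb16 were Sp4 at 0.053, E2f6 at 0.092 and Sgk3 at 0.097, with 78 genes within 0.2. They match its brighter probe set, which can cross-hybridise. On the dimmer Zbtb16 probe set single ECS and sham were close, at 45.2 and 43.5 units. Sult1a1 had 1 gene within 0.2, Wfdc1 at 0.171, followed by Plekho1 at 0.204 and Wdpcp at 0.239.

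Cell type markers moved between the arrays as well. The summed signal of the 6 GC markers on the array was 3318 units in 11 ECS, 3827 in 10 ECS, 5517 in single ECS and 6622 in sham. In it Calb1, the calbindin gene, was at 1303.6, 1507, 2747.1 and 3234.2 units in the same order of groups. In 11 ECS over sham 4 of the 6, namely Calb1, Dsp, Tdo2 and Il1r1, were at least 2-fold lower, against 3.11% of all genes. Prox1 and Neurod1, the rest of the sum, were not past 2-fold in any comparison. The study treats Calb1, Tdo2, Dsp and Il1r1 as tied to GC maturation and reports that repeated ECS lowers their expression. It also reports that repeated ECS did not affect the neuronal marker NeuN. That was protein staining, at another time after the last session than these arrays. The sum draws on genes that the study reports as lowered by ECS, so it is not a count of GCs. The 7 meningeal markers summed to 474 units in 11 ECS, 528 in 10 ECS, 493 in single ECS and 665 in sham. Ogn read 21.5, 33.4, 175.8 and 240.7 units and Col1a2 141.2, 150.8, 60.6 and 59 units in the same order. In 10 ECS Ogn was 7.21-fold lower and Col1a2 2.56-fold higher than in sham, so the sum mixes opposite changes. Among genes that both repeated ECS and the antidepressant fluoxetine changed in the DG, the study lists Ogn as one that ECS lowered most. The sum of 3 choroid plexus markers was 116 units in 11 ECS, 147 in 10 ECS, 265 in single ECS and 156 in sham. Among them, Ttr read 76.9, 103.4, 215.9 and 67.2 units and Kl 25.2, 26.6, 38.4 and 74.3 units in the same order. Oligodendrocyte markers summed to 5638, 5665, 5265 and 6215 units and microglial markers to 1749, 1656, 1635 and 1753 units in the same order. The sums were 829, 891, 860 and 877 units for endothelial markers and 1334, 1234, 1190 and 1370 units for those of pericytes and smooth muscle. The blood markers Alas2 and Hba-a1 were at or under the floor on every array. The part of cell composition in the members' values was not tested.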

How the data were processed

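The authors amplified 100 ng of pooled total RNA per group with a 3' in vitro transcription kit and deposited 1 MAS5 intensity per probe set and array, on a linear scale. The submitters' notes on processing name MAS5 without a version. How arrays were scaled to each other is not stated in those notes or the methods, and the trimmed means of the arrays differed (207 for 11 ECS, 217 for 10 ECS, 214 for single ECS and 239 for sham). Detection calls were not used here.

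The members and gene lists were chosen with earlier results of these data known. Of 22626 probe sets, 64 control probe sets aside, 20380 carried 1 symbol, 691 several and 1555 none in the array annotation. Signals under 12 were set to 12. A gene at the floor on 1 array has a ratio that is a bound, written "at least", and a gene at the floor on both has none. The 1.5-fold and 2-fold limits are sizes, not tests. It is the number of arrays, 1 per group, that limits the precision. Spearman correlations between arrays were 0.975 to 0.981, and the 3' to 5' signal ratios were 0.963 to 1.06 for Gapdh and 1.91 to 1.95 for Actb. Named genes were all members, up to 4 genes of each list farthest from 0 per comparison, and the 3 nearest patterns of the members with the widest range over the arrays among those above the floor on all arrays. Marker genes were named from those with a ratio past 2-fold in a comparison, and not all of these are named. Genes named outside that rule (Mt3, Sesn1, Cebpd, Xdh, Prox1, Neurod1, Alas2 and Hba-a1) were chosen after their values were seen.

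Computations used Python 3.11.15, numpy 2.4.6, pandas 2.3.3 and matplotlib 3.10.9, and were tested on simulated data. Promoter windows are those of RefSeq for GRCm38.p6.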

Additional observations from a re-analysis of the deposited data

Results flagged for a closer look

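In 4 members the response to ECS had opposite signs in mice with and without earlier sessions, as measured on the brightest probe set and the deposited scale. Each response is a ratio of 2 single arrays, and the difference between the responses was not tested. For Sult1a1 the difference of responses was 1.85 on the log2 scale, from a response of 1.21 in 11 ECS over 10 ECS and of -0.64 in single ECS over sham. For Plin4 it was 1.38, from a bound of at least 0.37 and a response of -1.01, at signals near the floor. For Zbtb16 it was 0.99, from 0.14 and -0.85, and for Tsc22d3 0.64, from 0.45 and -0.20. These 2 differences ran between 0.19 and 0.99 for Zbtb16 and between 0.03 and 0.64 for Tsc22d3 over all settings, lowest on the dimmest probe set. The signs were not opposite for Zbtb16 on its dimmer probe set (0.24 and 0.06), or for Tsc22d3 with arrays scaled to 1 median (0.58 and 0.10). The responses of Zbtb16 after earlier sessions and of Tsc22d3 after a single ECS were smaller than the pooled SD between probe sets of 1 gene.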

How the results depend on the processing

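Values were recomputed with arrays scaled to 1 median, to 1 trimmed mean or by quantiles, a floor of 50, no floor, a pseudocount of 16, the median over probe sets or the dimmest probe set. The leaving out of probe sets that can bind several transcripts and median scaling with a floor of 50 were added after seeing the data. In 10 ECS over sham the members' relative median ran between -0.55 and -0.31, between 7 and 10 members were below 0, and 6 to 8 members were lowest on the 10 ECS array. In 11 ECS over 10 ECS the relative median ran between 0.42 and 0.52. In single ECS over sham it was -0.26 and became 0.23 with the dimmest probe set. Members highest on the sham array, 7 as deposited, numbered 3 with median scaling, 4 with trimmed-mean or quantile scaling and 2 with median scaling and a floor of 50.

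Members 2-fold lower in single ECS over sham numbered 1, and 0 with any of the 3 scalings, a floor of 50, a pseudocount of 16, or median scaling and a floor of 50. Those 2-fold lower in 11 ECS over sham numbered 2, but 1 with each scaling, a floor of 50, a pseudocount, the median over probe sets, the dimmest probe set or without shared probe sets, and 0 with median scaling and a floor of 50. Those 2-fold higher numbered 2 in place of 1 in 11 ECS over 10 ECS with median scaling, alone or with a floor of 50, and with the dimmest probe set or without shared ones. With those last settings they also numbered 2 in place of 1 in single ECS over sham and 1 in place of 0 in 11 ECS over sham. Members 1.5-fold lower numbered 0 to 4 in single ECS over sham, against 4 as deposited, and 0 in 11 ECS over 10 ECS with each scaling, median scaling and a floor of 50, a pseudocount or the dimmest probe set, against 1. Zbtb16 in single ECS over sham was -0.85, and 0.055 with the dimmest probe set or without shared probe sets. The cause was not tested beyond what these settings change. With 1 array per group no replicate could be left out, and no paired analysis was possible because each group holds 1 array. For dim genes such as Plin4 the floor limits the ratio.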
